A study of Mus musculus with 30 samples.

Results

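A set of 6 genes of mucus-secreting epithelium was followed in RNA-seq counts from mouse pancreatic islets: the mucins Muc6 and Muc1, the trefoil factors Tff1, Tff2 and Tff3, and the mucin-folding enzyme Agr2. They are 6 of the 54232 gene IDs listed in each of 30 libraries. They were chosen by their readout, since Muc6 and Agr2 stood high in libraries of mice given cadmium chloride (CdCl2) for 6 weeks and Tff2 in those given it for 18 weeks. Their values in those comparisons are therefore a description with no test, and only the culture comparison, which did not enter the choice, tests them. All libraries are of male wild-type (WT) C57BL/6N mice. The in vivo groups are CdCl2 6weeks (1 mM, 4 libraries) and Vehicle 6weeks (5 libraries), then CdCl2 18weeks (1 mM, 5 libraries) and Vehicle 18weeks (6 libraries). The ex vivo groups are CdCl2 96hours (0.5 uM, 5 libraries) and Vehicle 96hours (5 libraries), from islets cultured after isolation. How the cadmium was given, and how old the mice were, is not stated in the labels. The labels also do not tie libraries to separate animals or cultures, so errors and p-values cover library-to-library spread, part or all of which may be technical.

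Islets are the hormone-secreting clusters of the pancreas, and they are freed from enzyme-secreting acinar tissue and ducts by digestion and a density gradient, so a preparation can carry pieces of other tissue. Mucus is a gel of heavily glycosylated mucins. Muc6 is the gel-forming mucin of glands, made in the mucous neck and pyloric gland cells of the stomach, in the submucosal glands of the duodenum and in some pancreatic and biliary ducts. Muc1 is a mucin anchored in the apical membrane of most secretory epithelia. Trefoil factors are small secreted peptides held together by disulphide bonds: Tff1 accompanies the surface mucins of the stomach, Tff2 accompanies Muc6 in gland mucus, and Tff3 is made by intestinal goblet cells together with the mucin Muc2. Agr2 is a disulphide isomerase of the endoplasmic reticulum that mucous cells need to fold mucins. In bulk RNA from whole islet preparations, a change in the number of cells of a type and a change in the RNA per cell cannot be told apart.

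The libraries held between 9092759 and 58366797 counts. The endocrine marker genes (Ins2, Ins1, Iapp and 4 others) took 14% to 27% of the counts in the 20 in vivo libraries and, at 6 weeks, 23.1% to 26.4% in CdCl2 libraries and 25.4% to 27% in vehicle libraries. Of all genes tested at an adjusted p under 0.05, 0% were called at 6 weeks (of 18080), 0.359% at 18 weeks (of 20911) and 0.00597% in culture (of 16743). At 6 weeks 923 genes had an unadjusted p under 0.05 in edgeR, at 18 weeks 3804 and in culture 920. Levels are CPM, counts brought to a common library size with scaling by the trimmed mean of M values (TMM) over all 30 libraries.

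Muc6 (ENSMUSG00000048191) lies on the minus strand of chromosome 7 at 141633456 to 141655319 in GRCm38 (mm10), 444 bp from Ap2a2 on one side and 35020 bp from Muc2 on the other. Agr2 (ENSMUSG00000020581) lies on the plus strand of chromosome 12 at 35992907 to 36004087, between Agr3 and Tspan13. Muc1 (ENSMUSG00000042784) lies on the plus strand of chromosome 3 at 89229057 to 89233381. The trefoil genes stand side by side on the minus strand of chromosome 17: Tff3 (ENSMUSG00000024029) at 31125306 to 31129646, Tff2 (ENSMUSG00000024028) at 31141049 to 31144282 and Tff1 (ENSMUSG00000024032) at 31161395 to 31165277. Tff1 overlaps Gm15318 on the opposite strand and shares 126 of its 697 distinct 50-base stretches with it, while the other 5 genes share 0 such stretches with any other annotated transcript.

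Muc6 and Agr2 are on different chromosomes and were high in the same 2 libraries, so the 250 bases before the RefSeq start of each are shown (GRCm38.p6, 5′ to 3′ along the gene's own strand, chr7:141655394-141655643 minus and chr12:35992675-35992924 plus). Capitals mark matches, on either strand, to the GATA motif searched as AGATAA or TGATAA.
Muc6: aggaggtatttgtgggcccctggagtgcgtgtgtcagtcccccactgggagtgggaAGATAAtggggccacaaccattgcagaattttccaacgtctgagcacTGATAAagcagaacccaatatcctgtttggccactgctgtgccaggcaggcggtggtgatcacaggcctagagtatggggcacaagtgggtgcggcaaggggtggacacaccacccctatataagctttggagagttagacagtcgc
Agr2: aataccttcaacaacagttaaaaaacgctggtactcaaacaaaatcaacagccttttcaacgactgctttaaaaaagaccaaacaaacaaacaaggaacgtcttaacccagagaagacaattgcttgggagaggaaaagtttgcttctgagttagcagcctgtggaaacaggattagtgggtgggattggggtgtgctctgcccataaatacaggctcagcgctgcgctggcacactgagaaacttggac
Muc6 held a GATA match starting 194 bases and another starting 147 bases before its start, and 16.6% of 32851 RefSeq promoters hold at least 1 such match in the same window. Agr2 held none. Neither held a forkhead match (TGTTTAC or TGTTTGC or TATTTAC, present in 9.73% of promoters), a metal response element core (TGCACNC or TGCGCNC, 21.4%) or a TATA box searched as TATAAA (12.4%). A match is a run of letters and not a shown binding site. Variants of the searched strings, such as the tatataag in the Muc6 stretch, were not counted.

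**Figure D1:**
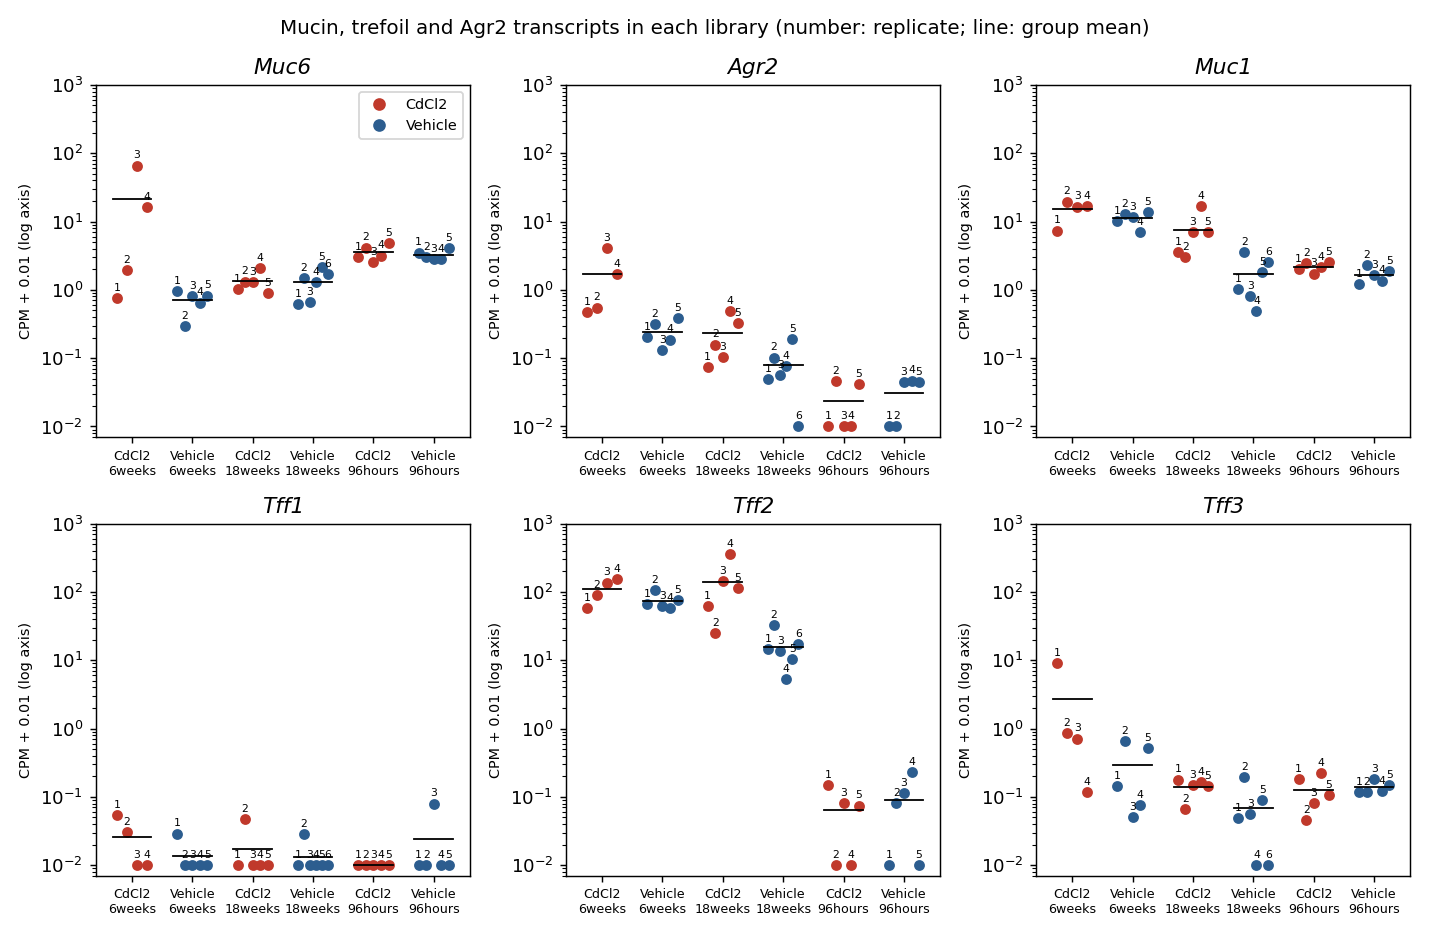
Level of each of the 6 genes in every library, as CPM plus 0.01 on a log axis, with CdCl2 libraries in red, vehicle libraries in blue, the replicate number beside each point and the group mean as a line. Muc6 reached 66 and 16.2 CPM in CdCl2 6weeks replicates 3 and 4, Tff2 spanned the widest range, and Tff1 lay near 0 in every library.

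After 6 weeks, Muc6 and Agr2 were high in part of the CdCl2 libraries and Tff3 in another. Of the 6 genes 5 passed the filter on low counts at 6 weeks, all but Tff1; Tff3 had at least 10 counts in 3 CdCl2 and 2 vehicle libraries, and Agr2 in 4 CdCl2 and 3 vehicle libraries. Macrophage markers (8 genes, led by Lyz2, C1qa and C1qb) took 0.0121% to 0.0304% of counts in CdCl2 and 0.0162% to 0.04% in vehicle, with all 8 fold changes below 0, a median log2 of -0.68, 0 called by edgeR and 6 at an unadjusted p under 0.05; their part in the members' values was not tested. Muc6 had 34, 92, 3465 and 749 counts in CdCl2 libraries 1 to 4, which is 0.741, 1.91, 66 and 16.2 CPM. In the vehicle libraries it had 49, 13, 40, 29 and 37 counts, which is 0.936, 0.282, 0.808, 0.64 and 0.816 CPM. The groups overlapped: CdCl2 replicate 1 lay inside the vehicle range, replicate 2 above it, and replicates 3 and 4 farther above. The group mean was 21.2 ± 30.7 CPM in CdCl2 and 0.697 ± 0.255 CPM in vehicle (SD, n = 4 and 5), and replicate 3 held 77.8% of the summed CdCl2 level. The log2 fold change was 4.92 ± 1.12 (SE) over all libraries and 3.17 without CdCl2 replicate 3.

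Agr2 had 21, 26, 216 and 79 counts in CdCl2 6weeks libraries 1 to 4 (0.458, 0.54, 4.11 and 1.7 CPM). It had 10, 14, 6, 8 and 17 counts in the vehicle libraries (0.191, 0.304, 0.121, 0.177 and 0.375 CPM). All 4 CdCl2 libraries stood above every vehicle library, with replicates 3 and 4 the highest, as for Muc6. Over all genes tested at 6 weeks, 0.691% had every CdCl2 library above every vehicle library and 0.78% every one below, and Agr2 was picked on this comparison, so nothing is read from its place among them. The log2 fold change of Agr2 was 2.87 ± 0.65 (SE), and 1.95 without CdCl2 replicate 3. Of the genes beside Muc6 and Agr2, Ap2a2 and Tspan13 did not share the pattern. Ap2a2 had 140 to 150 CPM in CdCl2 libraries and 137 to 150 CPM in vehicle libraries, and Tspan13 had 248 to 289 and 271 to 284 CPM. Muc2 had 241, 12, 58 and 1 counts in CdCl2 libraries 1 to 4 and 1 to 13 in vehicle. It was thus above the vehicle range in replicates 1 and 3 and not in replicate 4. Agr3 had 0 counts in all 4 CdCl2 libraries and at most 1 in a vehicle library, too few to show a pattern.

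Gkn3 and A4gnt were high in the same pair of libraries as Muc6 and Agr2. Gkn3, a gastrokine of the mouse stomach's mucous neck cells, had 0.0436, 0.477, 20.3 and 10.6 CPM in CdCl2 6weeks libraries 1 to 4 and 0.0883 to 1.03 CPM in the vehicle libraries. A4gnt, the enzyme that adds the terminal alpha-linked N-acetylglucosamine of gland mucins, had 0, 0, 64 and 23 counts in the CdCl2 libraries and 0, 1, 1, 2 and 0 counts in the vehicle libraries; it was singled out after its values were seen. Cftr, the chloride channel of ductal epithelium, had 0.785, 1.18, 3.47 and 1.25 CPM in the CdCl2 libraries and 0.497 to 1.04 CPM in vehicle, and was highest in replicate 3. The duodenal submucosal gland list (4 genes, led by Dmbt1, Muc5b and Bpifb1) took 0.0746%, 0.167%, 0.0907% and 0.164% of counts in CdCl2 libraries 1 to 4 and 0.0405% to 0.101% in vehicle libraries, highest in replicates 2 and 4, with Ptgdr at 0 in both groups. Nearly all of this sum is Dmbt1, at 37255 to 90802 counts in CdCl2 libraries, where Muc5b had 0 to 8 and Bpifb1 0 to 3. Dmbt1 also moved with acinar share at 18 weeks, from 69.4 CPM in vehicle replicate 4 (0.253%) to 4510 CPM in CdCl2 replicate 4 (18.8%). The stomach marker list (10 genes, Gkn3 among them) summed to 0.00136% to 0.00336% of counts in CdCl2 libraries and 0.00134% to 0.00163% in vehicle libraries. Without Gkn3 its other 9 genes summed to 0.00132% to 0.00153% in CdCl2 and 0.00131% to 0.00153% in vehicle, so the difference in the summed share is that of Gkn3. Most of the remaining sum is Atp4a, at 634 to 794 counts in CdCl2 and 618 to 783 in vehicle libraries. Atp4a also had 242 to 375 counts in the culture libraries, so this sum says little about the rarer genes. Among those, Pgc had 10, 14, 33 and 71 counts in CdCl2 libraries 1 to 4 and 1 to 37 in vehicle. The list's surface-cell markers Muc5ac and Cldn18 had 0 counts in all CdCl2 6weeks libraries and at most 1 in a vehicle library, so they do not set the groups apart. Gkn1 had 4, 0, 1 and 0 counts in CdCl2 libraries 1 to 4 and Gkn2 had 1, 0, 0 and 0. Both had at most 1 count in a vehicle library. The duct list (15 genes, led by Krt7, Epcam and Krt18) took 0.0562% to 0.0661% in CdCl2 and 0.0571% to 0.0621% in vehicle, with 12 of 15 fold changes above 0, 0 called by edgeR and 2 at an unadjusted p under 0.05. The 3 leading genes make most of this sum. Of the others, picked after their values were seen, Sox9 had 1.77, 3.22, 4.99 and 1.57 CPM in CdCl2 and 1.7 to 2.4 in vehicle. Spp1 had 1642, 2361, 5574 and 2092 counts in CdCl2 and 1913 to 3098 in vehicle, while Aqp1 was highest in vehicle replicate 1, at 1313 counts. The part of other tissues in the Muc6 and Agr2 values was not tested.

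Tff3 marked a different library. It had 413, 41, 37 and 5 counts in CdCl2 6weeks libraries 1 to 4 (9.01, 0.851, 0.705 and 0.108 CPM) and 7, 30, 2, 3 and 23 counts in vehicle libraries (0.134, 0.651, 0.0404, 0.0663 and 0.507 CPM). The groups overlapped, and CdCl2 replicate 1, where Muc6 was lowest of the 4, held 84.4% of the summed CdCl2 level. The log2 fold change was 3.26 ± 1.10 (SE), and 1.01 without that library. The same library was highest for other goblet cell genes: Muc2, the gel-forming mucin of the intestine, had 241 counts there, 1 to 58 in the other CdCl2 libraries and 1 to 13 in vehicle. Clca1, a secreted goblet cell protease, had 1064 counts there and 0 to 34 in the other CdCl2 libraries, against 0 to 42 in vehicle. Fcgbp, a mucus protein cross-linked to Muc2, had 48, 10.5, 9.29 and 1.9 CPM in CdCl2 libraries and 1.1 to 5.2 CPM in vehicle libraries. Enterocyte genes from the intestine list, looked at after the goblet genes, were not confined to cadmium: Fabp2 had 4.43 CPM in CdCl2 replicate 1 and 3.71 CPM in vehicle replicate 2, and Sis had 0.741 CPM in CdCl2 replicate 1 and 7.34 CPM in vehicle replicate 2. The intestine list (14 genes, led by Zg16, Vil1 and Anpep) summed to 0.0993% to 0.147% in CdCl2 and 0.0673% to 0.112% in vehicle, with 0 markers at 0 counts in either group, 0 of 8 tested markers called by edgeR and 5 at an unadjusted p under 0.05. Most of this sum is Zg16, which is also an acinar marker; without it the other 13 genes took 0.0377%, 0.0277%, 0.0279% and 0.025% in CdCl2 libraries 1 to 4 and 0.0266% to 0.0307% in vehicle. Replicate 1, the library high in Tff3, was the one above the vehicle range. Most of this 13-gene sum is Vil1 and Anpep. They also had 2126 to 2426 and 1487 to 1735 counts in the culture libraries, where Alpi, Sis and Apoa4 had 0. The part of intestinal tissue in the Tff3 values was not tested.

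**Figure D2:**
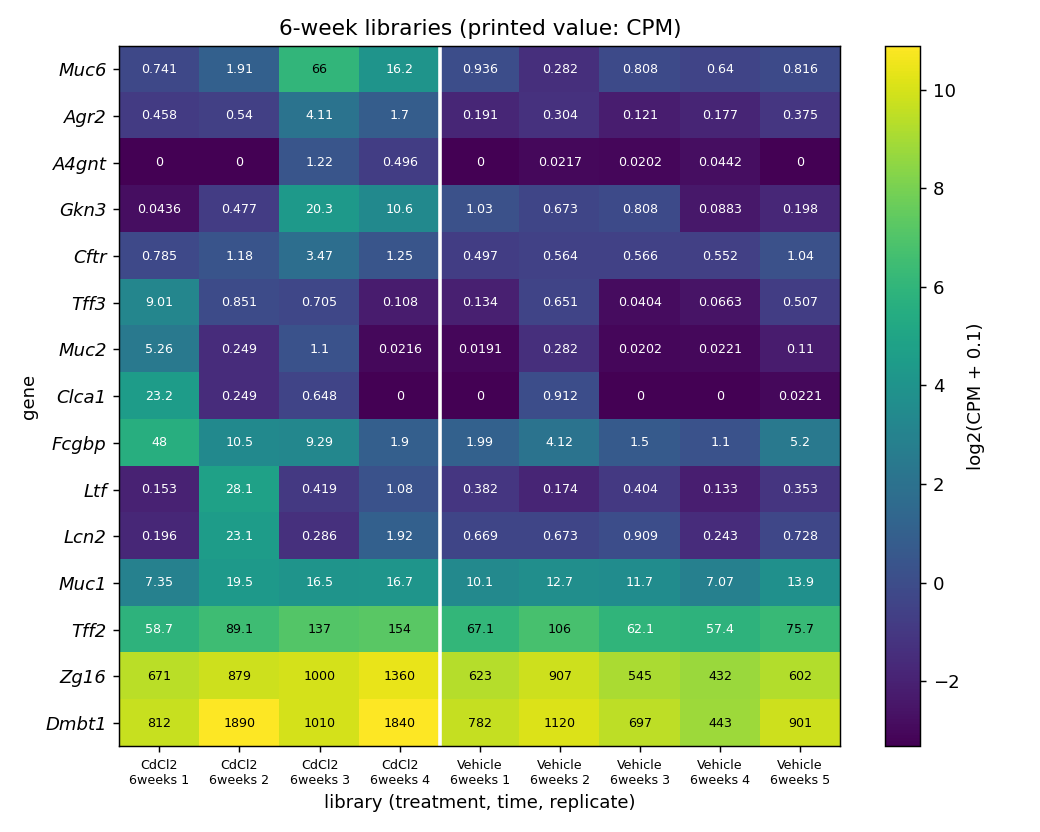
Level of mucous genes in the 9 libraries of the 6-week comparison, CdCl2 left of the white line and vehicle right of it, with colour for log2(CPM + 0.1) and the CPM printed in each cell. Muc6, Agr2, A4gnt and Gkn3 are highest in CdCl2 replicates 3 and 4, Tff3, Muc2, Clca1 and Fcgbp in CdCl2 replicate 1, and Ltf and Lcn2 in CdCl2 replicate 2; the genes shown were chosen with their values known.

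The membrane mucin and the gland trefoil differed less at 6 weeks. Muc1 had 337, 939, 866 and 775 counts in CdCl2 libraries (7.35, 19.5, 16.5 and 16.7 CPM) and 527, 583, 577, 320 and 632 counts in vehicle libraries (10.1, 12.7, 11.7, 7.07 and 13.9 CPM). Tff2 had 58.7, 89.1, 137 and 154 CPM in CdCl2 libraries and 67.1, 106, 62.1, 57.4 and 75.7 CPM in vehicle libraries. For both genes CdCl2 replicate 1 lay inside the vehicle range and replicates 3 and 4 above it. The log2 fold changes were 0.44 ± 0.26 (SE) for Muc1 and 0.57 ± 0.26 (SE) for Tff2. The acinar marker list (35 genes, led by Pnlip, Ctrb1 and Cel) took 3.6%, 4.89%, 5.5% and 7.95% of counts in the CdCl2 libraries and 2.64% to 4.86% in vehicle, with 0 of 31 tested markers called by edgeR (26 at an unadjusted p under 0.05), 31 of 31 with a fold change above 0 and 3 amylase markers (Amy2a2, Amy2a3 and Amy2a4) at 0 in both groups. Set against these counts, Tff2 gave 1.77 ± 0.324 counts per 1000 acinar marker counts in CdCl2 and 1.88 ± 0.116 in vehicle (SD, n = 4 and 5). By library the ratio was 1.5, 1.62, 2.23 and 1.73 in CdCl2 libraries 1 to 4 and 1.75 to 1.99 in vehicle. Replicate 3 thus lay above the vehicle range, and the other CdCl2 libraries below it.

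After 18 weeks the pattern was another one: Tff2 and Muc1 stood high in the CdCl2 libraries, and Muc6 did not. Tff2 had 2945, 1347, 6295, 14251 and 2514 counts in CdCl2 libraries 1 to 5, which is 62.1, 24.9, 146, 363 and 113 CPM. It had 738, 1782, 594, 78, 533 and 142 counts in vehicle libraries 1 to 6, which is 14.5, 32.8, 13.7, 5.26, 10.5 and 17.1 CPM. Of the CdCl2 libraries, 4 of 5 stood above every vehicle library, and replicate 2 lay inside the vehicle range. The mean was 142 ± 132 CPM in CdCl2 and 15.7 ± 9.34 CPM in vehicle (SD, n = 5 and 6), a log2 fold change of 3.21 ± 0.57 (SE) that was 2.48 without CdCl2 replicate 4.

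Muc1 had 3.54, 2.99, 6.92, 16.6 and 7.03 CPM in CdCl2 18weeks libraries and 1.02, 3.57, 0.809, 0.472, 1.82 and 2.53 CPM in vehicle libraries. Replicates 3, 4 and 5 of CdCl2 stood above every vehicle library, and replicates 1 and 2 just under the highest one. The log2 fold change was 2.16 ± 0.50 (SE). Muc6 had 1.01, 1.31, 1.3, 2.09 and 0.896 CPM in CdCl2 libraries and 0.611 to 2.12 CPM in vehicle libraries, so that the vehicle range held all 5 CdCl2 libraries, at a log2 fold change of 0.09 ± 0.33 (SE). Agr2 had 3, 8, 4, 19 and 7 counts in CdCl2 libraries and 0 to 9 counts in vehicle libraries, and Tff3 had 3 to 8 counts in CdCl2 libraries and 0 to 10 in vehicle libraries. Agr2 and Tff3 did not pass the filter on low counts at 18 weeks, so of the 6 genes 3 were fitted there. Over all genes tested at 18 weeks, 0.713% had every CdCl2 library above every vehicle library and 0.655% every one below; neither group of genes held a fitted member.

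Acinar transcripts moved with Tff2 and Muc1 at 18 weeks. The acinar list took 3.46%, 1.57%, 9.18%, 18.8% and 6.26% of counts in CdCl2 libraries 1 to 5 and 0.67%, 1.75%, 0.731%, 0.253%, 0.64% and 0.865% in vehicle libraries 1 to 6. By edgeR's quasi-likelihood test, 24 of 32 tested acinar markers rose and 0 fell, beside the 0.359% of all genes called, with a median log2 fold change of 3.43 over the list. The count was 0 without any one of CdCl2 replicate 3 and vehicle replicates 1, 3, 4, 5 and 6, 1 without CdCl2 replicate 4, 25 to 29 without any one of the others, and 0 without the 3 shallowest libraries. Of the 35 markers 0 were at 0 counts throughout the CdCl2 libraries and 2 (Amy2a2 and Amy2a3) throughout the vehicle libraries. The libraries stood in the same order by Tff2 as by acinar share except that vehicle replicates 1 and 3 changed places, with CdCl2 replicate 4 the highest and vehicle replicate 4 the lowest in both. Per 1000 acinar marker counts Tff2 gave 1.7, 1.66, 1.47, 1.52 and 1.86 in CdCl2 libraries and 2.24, 1.98, 1.94, 2.09, 1.73 and 1.81 in vehicle libraries. The means were 1.64 ± 0.155 in CdCl2 and 1.96 ± 0.186 in vehicle (SD, n = 5 and 6). The groups overlapped through CdCl2 replicate 5, and the other 4 of 5 CdCl2 ratios lay below every vehicle ratio, while 4 of 5 CdCl2 libraries were above every vehicle library in Tff2 CPM. For Muc1 the same ratio was 0.0968, 0.199, 0.0696, 0.0696 and 0.116 in CdCl2 libraries and 0.158, 0.216, 0.115, 0.188, 0.298 and 0.267 in vehicle libraries. Replicates 3 and 4 of CdCl2, the libraries richest in acinar transcripts, had the lowest Muc1 ratio of all 11 libraries. The duct list took 0.058% to 0.0722% of counts in CdCl2 and 0.0468% to 0.0645% in vehicle. Of its 15 fold changes 13 were above 0, with 0 called by edgeR and 10 at an unadjusted p under 0.05. Over all 20911 genes tested at 18 weeks, 3804 had such an unadjusted p. Per 1000 duct marker counts Muc1 gave 9.86 ± 5.36 in CdCl2 and 3.14 ± 2.15 in vehicle (SD, n = 5 and 6). The part of ductal and acinar tissue in the Muc1 values was not tested.

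**Figure D3:**
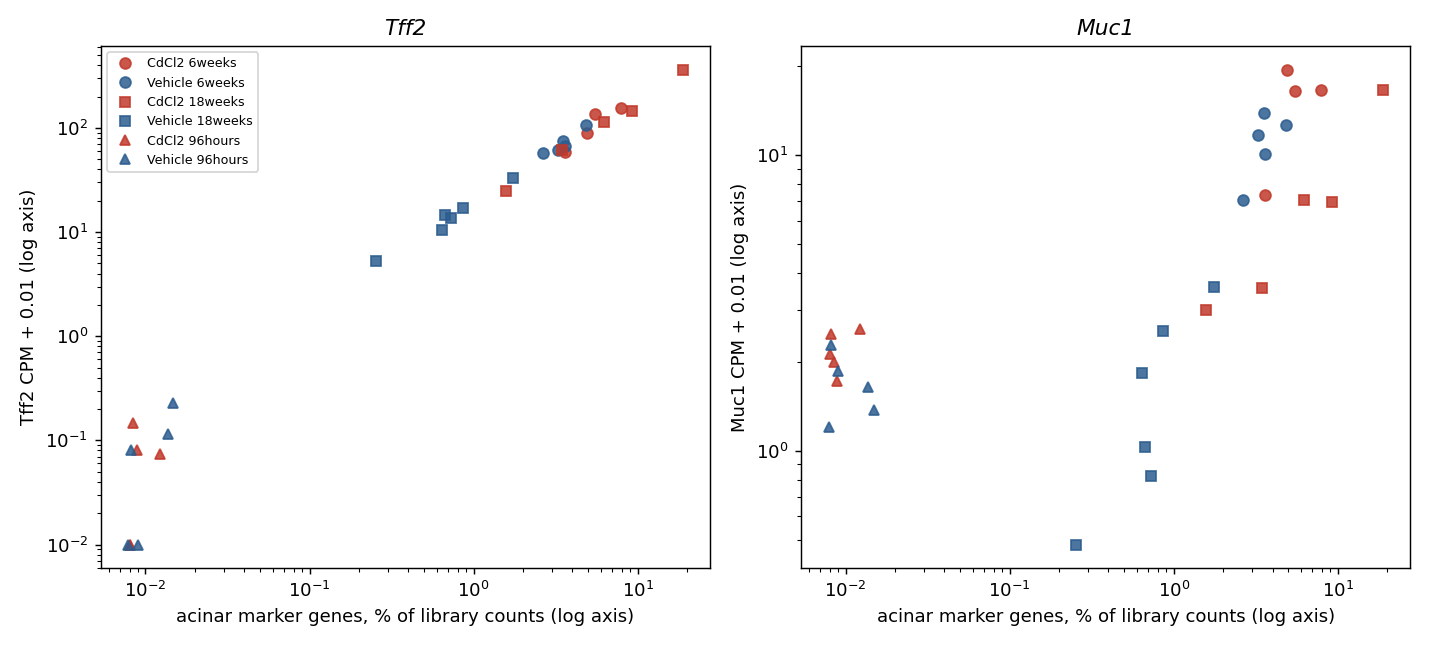
Tff2 (left) and Muc1 (right) level as CPM plus 0.01 against the percent of each library's counts in 35 acinar marker genes, both on log axes, with 1 point per library. In vivo, Tff2 followed the acinar share from 5.26 CPM at 0.253% to 363 CPM at 18.8%, while Muc1 stayed between 1.19 and 2.57 CPM in culture, where the acinar share was at most 0.0148%.

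**Figure D4:**
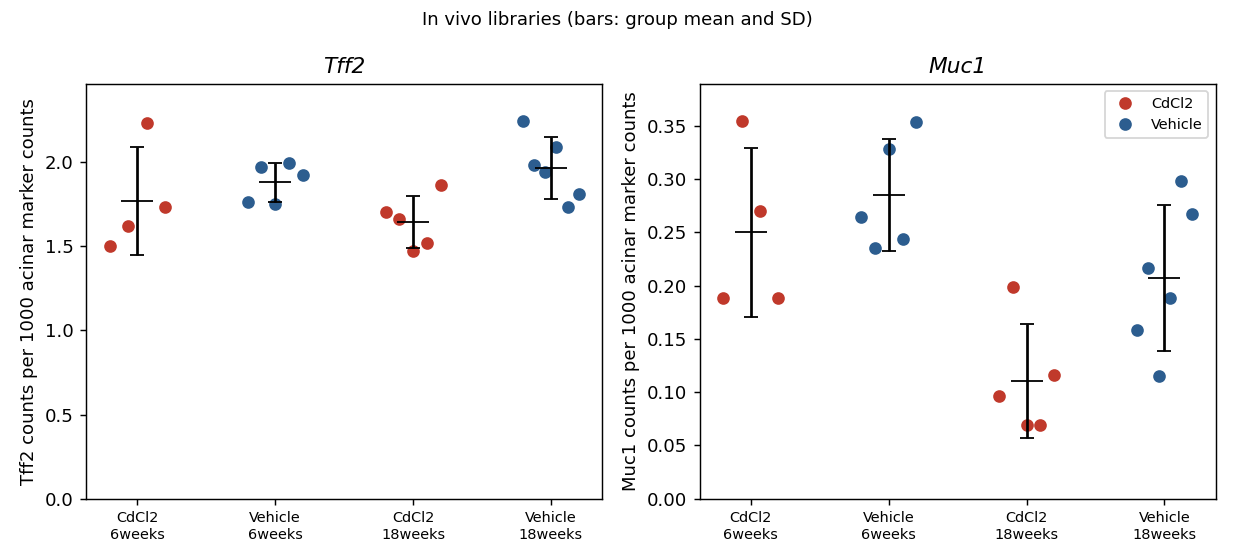
Counts of Tff2 (left) and Muc1 (right) per 1000 acinar marker counts in each in vivo library, CdCl2 in red and vehicle in blue, with the group mean and SD. The Tff2 ratio lay between 1.47 and 2.24 in all 20 libraries, and the Muc1 ratio between 0.0696 and 0.354.

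In culture, with islets exposed to 0.5 uM CdCl2 for 96 hours, the choice of genes played no part and the 2 members that passed the filter, Muc6 and Muc1, were tested. Neither was called by edgeR or DESeq2, beside 0.00597% of all genes. Muc6 had 88, 115, 71, 89 and 151 counts in CdCl2 libraries (3.02, 4.13, 2.54, 3.15 and 4.86 CPM) and 97, 84, 81, 77 and 116 counts in vehicle libraries (3.5, 3, 2.82, 2.83 and 4.05 CPM). The groups overlapped over most of their range, and the log2 fold change was 0.14 ± 0.17 (SE) with a 95% interval from -0.23 to 0.51 and an edgeR adjusted p of 0.944. Muc1 had 1.99, 2.48, 1.72, 2.12 and 2.57 CPM in CdCl2 libraries and 1.19, 2.28, 1.64, 1.36 and 1.85 CPM in vehicle libraries, with 2 CdCl2 libraries above every vehicle library. Its log2 fold change was 0.39 ± 0.18 (SE), with a 95% interval from 0.01 to 0.78, an unadjusted p of 0.0463 and an edgeR adjusted p of 0.888. Over all genes tested in culture, 0.299% had every CdCl2 library above every vehicle library and 0.4% every one below, and neither Muc6 nor Muc1 was among them.

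The other 4 genes were at or near 0 in culture. Tff2, the most abundant member in vivo, had 4, 0, 2, 0 and 2 counts in CdCl2 96hours libraries and 0, 2, 3, 6 and 0 counts in vehicle libraries. Tff3 had 1 to 6 counts in CdCl2 and 3 to 5 in vehicle, and Agr2 at most 1 in any culture library. The acinar list took 0.00804% to 0.0123% of counts in CdCl2 and 0.00787% to 0.0148% in vehicle, with 9 of 35 markers at 0 counts in each group, among them Ptf1a and Ctrc. Muc1 gave 10.3 to 35.2 counts per 1000 acinar marker counts in the 10 culture libraries, against 0.0696 to 0.354 in the 20 in vivo libraries. Tff1, the surface trefoil, had 9 counts in all 30 libraries together, in 6 libraries and with at most 2 in one. A count of 0 allows up to 3 counts in a library, which is 0.0553 to 0.361 CPM by library and covers counting error only.

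Per kilobase of exon, Tff2 had the highest level of the 6 genes in all 4 in vivo groups, and the members kept different orders of groups. Tff2 averaged 188 ± 74.7 CPM per kilobase in CdCl2 6weeks and 126 ± 33.3 in Vehicle 6weeks, 243 ± 226 in CdCl2 18weeks and 26.8 ± 16 in Vehicle 18weeks. Muc1 averaged 6.4 ± 2.25 CPM per kilobase in CdCl2 6weeks and 4.72 ± 1.13 in Vehicle 6weeks, then 3.16 ± 2.33 in CdCl2 18weeks and 0.727 ± 0.503 in Vehicle 18weeks. Muc6 averaged 2.26 ± 3.28 CPM per kilobase in CdCl2 6weeks and 0.0744 ± 0.0272 in Vehicle 6weeks. Among groups without the high 6-week libraries, Muc6 CPM was highest in culture: the lowest Vehicle 96hours library (2.82 CPM) stood above the highest CdCl2 18weeks library (2.09 CPM) and the highest Vehicle 18weeks library (2.12 CPM), while the 18-week groups and Vehicle 6weeks overlapped with their neighbours in the order. For Tff2 the order by mean was CdCl2 18weeks, CdCl2 6weeks and Vehicle 6weeks, each overlapping the next, then Vehicle 18weeks, apart from both its neighbours, then the culture groups. Vehicle 18weeks reached 32.8 CPM of Tff2 and so overlapped CdCl2 18weeks, whose lowest library had 24.9 CPM. For Muc1 the order by mean was CdCl2 6weeks, Vehicle 6weeks and CdCl2 18weeks, each overlapping the next, then CdCl2 96hours, Vehicle 18weeks and Vehicle 96hours, which overlapped in turn; Vehicle 18weeks reached 3.57 CPM and so also overlapped CdCl2 18weeks.

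The genes most like each member over the 20 in vivo libraries were ranked by Pearson r of log2 CPM among 21980 genes, as a description, since the libraries differ in treatment, time and tissue makeup at once. Tff2 was most like the acinar enzymes Pnlip (r = 0.997, with 0.965 within the 9 libraries of 6 weeks and 0.998 within the 11 of 18 weeks), Pnliprp2, Cela1 and 2210010C04Rik, all at 0.995 or more. Muc1 was most like Pla2g1b, the pancreatic phospholipase (r = 0.974, 0.675 and 0.976 within the times), followed by Cachd1, the zinc transporter Slc39a5, Bmp7 and the potassium channel Kcnq1. Tff3 was most like Fcgbp (r = 0.931, 0.977 and 0.535 within the times), Muc2 (0.911), Clca1 (0.899), the galectin Lgals2 (0.893) and the brush-border cadherin Cdhr5 (0.874). Agr2 was most like Cftr (r = 0.909, 0.934 and 0.760 within the times), then 4930426D05Rik, Gabre, E230013L22Rik and Eda. Muc6 was most like the pseudogene Dynlt1-ps1 (0.745), Agr2 (0.710), Gkn3 (0.706), Ripk2 (0.666) and Dzip1l (0.659). The likeness of Muc6 to Agr2 rested on few libraries: r was 0.920 within 6 weeks, 0.350 within 18 weeks and -0.012 without the 2 libraries farthest from the Muc6 median. With the log2 acinar share, r was 0.99 for Tff2, 0.89 for Muc1, 0.60 for Agr2, 0.46 for Tff3 and 0.25 for Muc6.

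Companion genes were then tested: 89 of 90 listed genes of mucus biology, in 6 lists of other mucins, mucin glycosylation, folding, transcription factors, binding partners and secreted companions, were found by symbol. At 6 weeks 65 passed the filter, 0 were called by edgeR or by DESeq2, and 14 had an unadjusted p under 0.05; 48 had a fold change above 0, with a median log2 fold change of 0.170 beside -0.002 over all genes tested. The 3 of smallest p with a positive change were Ltf, the iron-binding lactoferrin (4.66 ± 1.33), Muc2 (4.18 ± 1.20) and Fcgbp (2.65 ± 0.76, log2 ± SE), each at an edgeR adjusted p of 0.919. The 3 with a negative change were the fucosyltransferase Fut4 (-0.14 ± 0.08), the glycosyltransferase Galnt10 (-0.08 ± 0.04) and the transcription factor Sox17 (-0.45 ± 0.25), also at 0.919. Ltf was high in 1 library: 28.1 CPM in CdCl2 replicate 2, against 0.153 to 1.08 CPM in the other CdCl2 libraries and 0.133 to 0.404 CPM in vehicle. The medians were 0.735 over 16 tested secreted companions, 0.272 over 6 other mucins and -0.005 over 20 glycosylation genes.

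At 18 weeks 57 companions passed the filter, 2 rose and 0 fell, beside the 0.359% of all genes called. Zg16, a lectin of acinar zymogen granules and also of goblet cells, averaged 1830 ± 1880 CPM in CdCl2 and 187 ± 104 CPM in vehicle (log2 fold change 3.34 ± 0.62, SE, edgeR adjusted p = 0.0376), with 4 of 5 CdCl2 libraries above every vehicle library. Erp27, a redox-inactive disulphide isomerase relative that is abundant in pancreas, averaged 37.7 ± 37.5 CPM in CdCl2 and 3.95 ± 2.4 CPM in vehicle (3.26 ± 0.61, edgeR adjusted p = 0.0376), again in 4 of 5. Zg16 is also one of the acinar markers above, whose levels moved with both genes; their part in these values was not tested. The count depended on single libraries: 0 companions were called without any one of CdCl2 replicates 3 and 4 or vehicle replicates 1, 3, 4, 5 and 6, and 4 or 5 without any one of the others. The mucosal glycoprotein Dmbt1, the glycosyltransferase Galnt6 and Spdef came next by p, with edgeR adjusted p-values of 0.0555, 0.0718 and 0.0831. Spdef, a transcription factor of mucous cells singled out after its values were seen, averaged 1.18 ± 1.16 CPM in CdCl2 and 0.138 ± 0.122 CPM in vehicle. It had 0.654, 0.259, 1.09, 3.19 and 0.717 CPM in CdCl2 libraries 1 to 5, which stood in the same order by acinar share. The part of acinar tissue in the Spdef, Dmbt1 and Galnt6 values was not tested.

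In culture 49 companions passed the filter and 0 were called by edgeR or by DESeq2. In edgeR 3 had an unadjusted p under 0.05, beside 920 of all 16743 genes tested. The median log2 fold change was 0.031 beside -0.002 over all genes. The 3 of smallest p with a negative change were the sialyltransferase St3gal1 (-0.11 ± 0.05), Gata6 (-0.17 ± 0.08) and Creb3l1 (-0.12 ± 0.06, log2 ± SE), at an edgeR adjusted p of 0.888. With a positive change they were Sox9, the galectin Lgals3 and Fcgbp, with log2 fold changes of 0.46 ± 0.23, 0.24 ± 0.16 and 0.33 ± 0.23 (SE).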

How the data were processed

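The authors deposited 1 table of raw read counts by Ensembl gene for each of 30 libraries, not normalized. Per the submitters' processing notes, cutadapt 1.13, STAR, HTSeq 0.6.1p1, DESeq2 and the mm10 build were used; the annotation release, strand setting and treatment of multiply mapped reads are not given in these sources. Of the 54232 gene IDs 54079 (99.72%) matched a symbol. No 2 libraries were identical (61 pairs within groups compared by chi-square).

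CdCl2 and vehicle libraries of a setting were compared in a separate fit by edgeR 4.0.16 (quasi-likelihood test, R 4.3.3). Low genes were dropped by filterByExpr at a minimum count of 10 and a minimum total of 15, and libraries were scaled by TMM, with Benjamini-Hochberg adjustment over all genes tested and a threshold of 0.05. Replicate numbers were not used as a block. CPM used TMM over all 30 libraries, and log2 CPM a prior count of 2. DESeq2 1.42.0 and the other alternatives are in the closing section. The 6 genes, the companion and marker lists and the naming rule were chosen with earlier results of these data known. The rule named the 6 genes, companions past the threshold (at most 8 a comparison, otherwise the 3 of smallest p in each direction), the 5 most alike genes per member, the 3 most abundant genes of a marker list with its markers at 0, and neighbouring genes; others were named after their values were seen. A gene that the rule names is not reported here. Sequences are RefSeq's (GRCm38.p6), where 3 of the 6 genes had a match.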

Additional observations from a re-analysis of the deposited data

Results flagged for a closer look

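Of 22 sets of a member's CPM in a group with at least 10 counts in 1 library, examined for a library far from the rest, 1 was found: Tff3 in CdCl2 6weeks replicate 1, at 9.01 CPM, with the other CdCl2 libraries at 0.851, 0.705 and 0.108 CPM and the vehicle libraries at 0.0404 to 0.651 CPM. Its gap to the next library was 0.916 of the group's whole range. Chance is taken to put about 1 in 20 groups past the limit used.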

How the results depend on the processing

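The number of companion genes called at 18 weeks (2) was 9 with DESeq2, 4 with no filter on low counts, 13 with all 30 libraries in the fit, 0 with the replicate block and 0 without the 3 libraries of lowest depth (CdCl2 replicate 5 and vehicle replicates 4 and 6); leaving out single libraries gave 0 to 5. The number of acinar markers that rose at 18 weeks (24), with alternatives chosen after seeing the data, was 24 to 30 with other scaling, DESeq2, no filter or all libraries, and 0 with the replicate block. The cause was not tested. The members called in culture and the companions called at 6 weeks and in culture were 0 under every alternative run, DESeq2 included. The log2 fold change of Muc6 in culture (0.14) was -0.01 without CdCl2 replicate 5 and at most 0.24 when leaving out another library. Muc1 in culture (adjusted p = 0.888 by edgeR) had its lowest adjusted p over the alternatives, 0.308, with the replicate block. That of Muc6 at 18 weeks ran from -0.15 to 0.32 and kept its sign in 14 of 17 alternatives. That of Muc6 at 6 weeks was 3.95 with the replicate block. That of Tff3 at 6 weeks was 1.01 without CdCl2 replicate 1. The fold changes of Muc1, Tff2, Tff3 and Agr2 kept their sign in every alternative run. The labels do not say that equal replicate numbers pair libraries. In culture the deviations of same-numbered libraries correlated at 0.0683 to 0.288. Each CdCl2 culture library matched the vehicle library of its own number best (5 of 5), which is a hint from the data. The best match of each vehicle library was not looked up. At 6 and 18 weeks correlations ran from -0.0865 to 0.273. Tff1 everywhere, and Agr2 and Tff3 at 18 weeks and in culture, had at most 19 counts in a library, which limits what their values can show.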

Other observations

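Lcn2, the siderophore-binding lipocalin, had 0.196, 23.1, 0.286 and 1.92 CPM in CdCl2 libraries 1 to 4 and 0.243 to 0.909 CPM in vehicle libraries, with CdCl2 replicate 2 the highest, as for Ltf. Slpi, a protease inhibitor of mucosal secretions, went otherwise, at 28.9, 5.27, 1.31 and 2.89 CPM in CdCl2 libraries and 4.2 to 13.6 CPM in vehicle libraries. CdCl2 replicate 2 also held 3.59 CPM of Muc13, a membrane mucin, where the other CdCl2 libraries had 0.237 to 2.01 CPM and the vehicle libraries 0.0382 to 2.67 CPM. In culture Lcn2 reached 15.3 CPM in CdCl2 replicate 2 and 19.8 CPM in vehicle replicate 2, with 1.47 to 4.76 CPM in the other CdCl2 libraries and 0.18 to 4.87 CPM in the other vehicle libraries.

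The most abundant other mucin was the membrane mucin Muc4, at 174 to 197 CPM in CdCl2 and 127 to 176 CPM in vehicle libraries at 6 weeks, 21.2 to 63 CPM in CdCl2 and 34.8 to 72.2 CPM in vehicle at 18 weeks, and 139 to 173 CPM in CdCl2 and 150 to 173 CPM in vehicle in culture. Muc2, near 0 at 18 weeks, had 0.579 to 2.66 CPM in CdCl2 and 0.143 to 1.51 CPM in vehicle culture libraries, while Clca1 had at most 0.0713 CPM there. These genes were picked after their values were seen.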
